A study of Oryctolagus cuniculus with 12 samples.

Results

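The transcripts of the epidermal growth factor (EGF) receptor, its partner receptor ERBB2 and the 7 ligands that bind the EGF receptor were followed in rabbit conjunctiva after glaucoma filtration surgery. The genes were chosen by name as EGFR, ERBB2, AREG, EREG, HBEGF, TGFA, BTC, EPGN and EGF, and all 9 were found among the 20566 genes of the deposited table. The animals were female Japanese white rabbits. A trabeculectomy (TL) was made in the right eye, an operation that drains aqueous humor past a flap of sclera so that it collects beneath the conjunctiva as a bleb. The antimetabolite mitomycin C was applied under the flaps, a piece of peripheral iris was removed, betamethasone was injected into the conjunctiva at the end of surgery, and an ointment with erythromycin and colistin was given. The bleb conjunctiva was sequenced in 3 libraries at 3 hours (TL3h), 3 at 3 days (TL3d) and 3 at 14 days (TL14d), and 3 control libraries came from the conjunctiva of unoperated left eyes. The control eyes are not stated to have received any of these agents, so the incision, the filtration, mitomycin C, betamethasone and the ointment cannot be told apart. The labels give neither the animals' age, nor the time at which control tissue was taken, nor the operated eye to which each control eye belonged, and all comparisons with control share the same 3 control libraries.

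The EGF receptor is a tyrosine kinase of the cell membrane that drives migration, survival and division of epithelial cells, and its signalling is well known for closing wounds of the ocular surface. Its ligands are made as membrane proteins, and most are released when a metalloprotease such as ADAM17 cuts them near the membrane. ERBB2 binds no ligand of its own and signals as a partner of the other receptors of the family, and active receptors induce their own inhibitors as well as early response genes such as FOSL1.

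The libraries held between 27111348 and 38591425 estimated counts. Levels are given in CPM, counts scaled to a common library total, with library sizes adjusted by the trimmed mean of M values (TMM), and q is the adjusted p of edgeR's quasi-likelihood test over 14835 genes, called at 0.05. The epithelial markers KRT5 and EPCAM were present in every library, at 1258 to 9070 CPM for KRT5 and 92.7 to 353 CPM for EPCAM. Markers of other cells differed between the groups. The summed level of 7 neutrophil markers ranged from 3.49 to 82.5 CPM in control, from 1049 to 2792 CPM in TL3h, from 126 to 739 CPM in TL3d and from 3.36 to 114 CPM in TL14d, and 6 of the 6 that could be tested rose at 3 hours, 1 rose at 3 days and 0 at 14 days, while the granule enzyme MPO was at or near 0 in every library, at most 0.114 CPM. CSF3R, a receptor of neutrophils that other myeloid cells also carry, was at 1.09, 2.05 and 18.9 CPM in control and at 701, 607 and 229 CPM in TL3h. Macrophage markers, with CD68 at 19.2 to 36.1 CPM in control, 79.3 to 130 CPM in TL3h and 168 to 194 CPM in TL3d, summed to 72.7 to 606 CPM in control, 648 to 988 CPM in TL3h, 1296 to 2068 CPM in TL3d and 91.8 to 451 CPM in TL14d, and 2 and 4 of 7 rose at 3 hours and 3 days. The summed fibroblast markers ranged from 12400 to 77100 CPM in control, from 105800 to 126800 CPM in TL3h, from 1452 to 65230 CPM in TL3d and from 11160 to 57440 CPM in TL14d, with 0 of 8 called by edgeR and 0 with an unadjusted p under 0.05 against control at each time. The fibroblast marker COL1A1 held 2416 to 18610 CPM in control and 22460 to 29730 CPM in TL3h (q = 0.352). PECAM1, an endothelial marker, held 5.91 to 136 CPM in control and 459 to 972 CPM in TL3h (q = 0.0109). Endothelial markers summed to 68.2 to 298 CPM in control, 642 to 1262 CPM in TL3h (2 of 7 higher), 306 to 568 CPM in TL3d (0 called by edgeR and 0 with an unadjusted p under 0.05) and 92.6 to 302 CPM in TL14d. Those of lacrimal or serous glands summed to 4349 to 7338 CPM in control, 1473 to 3653 CPM in TL3h (3 of 7 lower and 1 higher), 2242 to 3525 CPM in TL3d (1 lower, KIT, which is also a mast cell marker) and 3772 to 7298 CPM in TL14d. Epithelial markers summed to 5919 to 11530 CPM in control, 7130 to 11780 CPM in TL3h (3 of 11 higher), 8025 to 20270 CPM in TL3d (1 higher, KRT5, q = 0.0291) and 11500 to 17450 CPM in TL14d. The sums of the goblet cell, lymphocyte, skeletal muscle and pigment cell lists overlapped between control and TL3h, and those of mast cells and Schwann cells were lower in TL3h without overlap. The mast cell sum was mostly KIT, with a mean of 144 CPM in control. Of 4 mast cell markers tested at 3 hours, KIT was lower (q = 0.0116) and 3 were higher, namely HDC (q = 0.01175), FCER1A (q = 0.0238) and MS4A2 (q = 0.0387). Of 6 Schwann cell markers 1 was called lower and 0 higher, with a median log2 fold change of -0.128. By the mean squared difference of gene counts between libraries of a group, in units of counting variance (counting error alone gives about 1), control replicate 3 (293 and 499 from the others, which were 112 apart) and TL3d replicate 3 (271 and 536, the others 112 apart) stood apart from their groups. TL14d replicate 1 was the farthest of its group by less (333 and 430, the others 291 apart), and these 3 libraries were left out together as an alternative. In bulk tissue, fewer cells of a type and less RNA per cell cannot be told apart.

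BTC, AREG, EREG and EPGN lie next to each other on chromosome 15 of OryCun2.0, with no other gene of the table between them, in a span of 485139 bases (chr15:75472783-75957921). BTC (gene ID 100343154, plus strand) spans chr15:75472783-75532713, and AREG (100354550, minus strand) spans chr15:75825081-75838394. EREG (100343410, minus strand) spans chr15:75881215-75905518, and EPGN (100343916, minus strand) spans chr15:75950349-75957921. EGF (100008808, minus strand) is on the same chromosome but apart from them, at chr15:39435018-39532277. HBEGF (100008809, minus strand) spans chr3:22484170-22495564, and TGFA (100009482, plus strand) spans chr2:115618028-115721521. The receptor genes are EGFR (100008806, minus strand) at chr10:45658882-45803851 and ERBB2 (100009554, plus strand) at chr19:40942427-40966338.

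At 3 hours after surgery, AREG and HBEGF rose steeply and ERBB2 fell, while EGFR, EPGN, EREG, TGFA, BTC and EGF did not pass the test. These were 3 of the 9 genes, beside 45.4% of all genes tested, so that the share of the 9 genes was no higher than that of all genes. In AREG and HBEGF every TL3h library lay above every control library, beside 28.9% of all genes, and in ERBB2 below, beside 28.3%, which makes 3 of 9 beside 57.3% in either direction. At 3 days AREG alone passed the test, 1 of 9 beside 17.6% of all genes, and 4 did not overlap with control, beside 45.5%. Of these AREG and HBEGF were higher (23.8% of all genes) and EGFR and ERBB2 lower (21.7%). Without control replicate 3, TL3d replicate 3 and TL14d replicate 1 the counts called at 3 hours and 3 days were 3 (ERBB2, AREG and HBEGF) and 3 (the same genes).

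**Figure D1:**
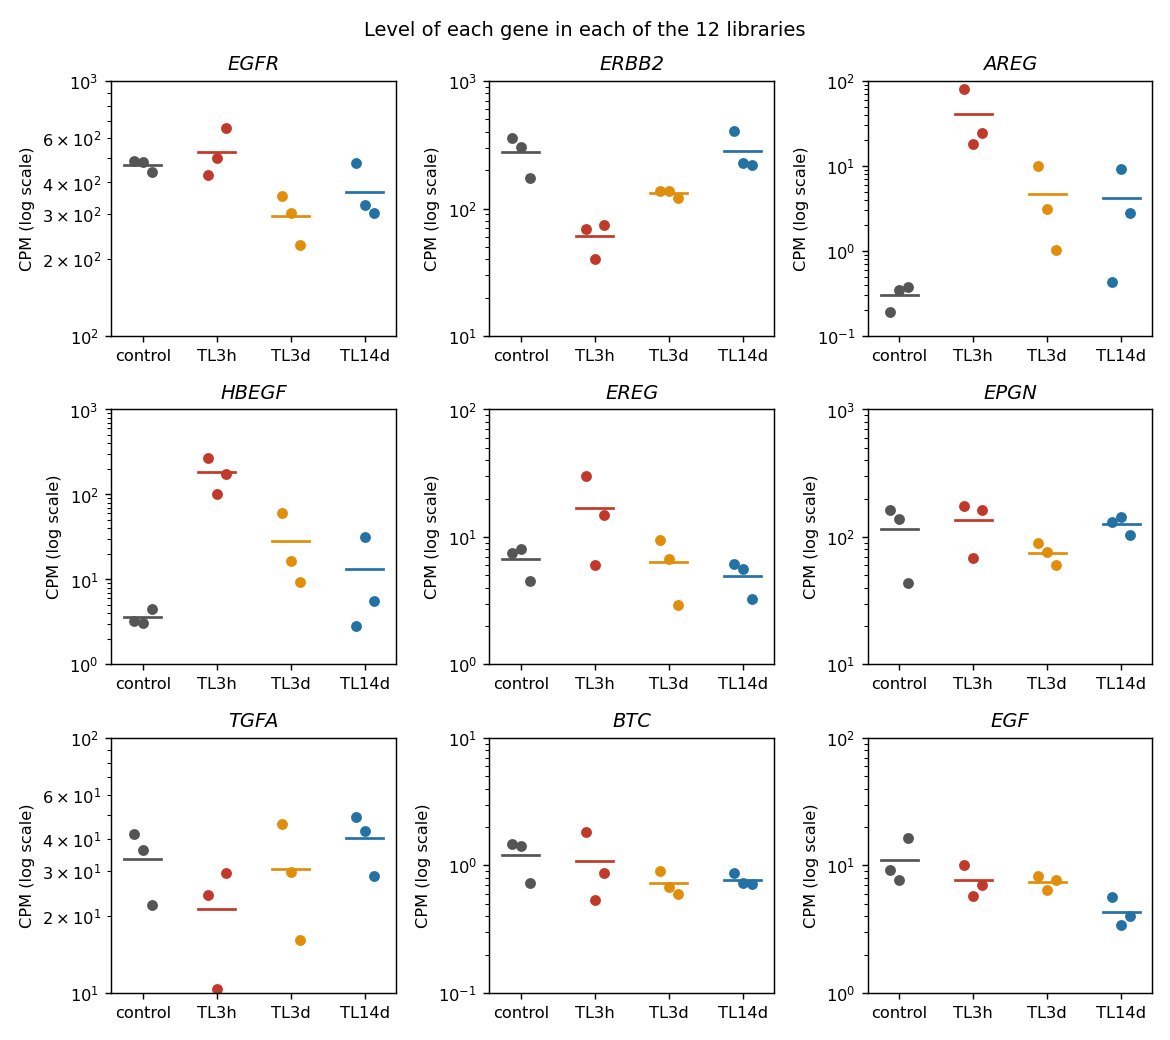
Level of each of the 9 genes in each of the 12 libraries, in TMM-scaled CPM on a log axis that differs between panels; points are libraries and bars are means of 3. AREG and HBEGF are highest in the 3 TL3h libraries and ERBB2 is lowest there, whereas the points of BTC, EPGN and TGFA overlap between TL3h and control.

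AREG encodes amphiregulin, a ligand that binds the EGF receptor with low affinity. It was near the limit of detection in control, at 0.190, 0.350 and 0.376 CPM, and stood at 80.2, 17.9 and 24.4 CPM in TL3h. The TL3d libraries held 9.89, 3.11 and 1.02 CPM, and the TL14d libraries held 0.437, 9.27 and 2.80 CPM. All 9 libraries of operated eyes were above all 3 control libraries, but TL14d replicate 1 only narrowly so. The log2 fold change against control was 7.05 ± 1.33 (SE) at 3 hours (132-fold, q = 0.00191), and without TL3h replicate 1 it was 6.05 (66.4-fold, q = 0.00551). At 3 days it was 3.93 ± 1.18 (15.2-fold, q = 0.0460), and without TL3d replicate 1 it was 2.75 (6.71-fold, q = 0.158). The level fell again between 3 hours and 3 days, by 3.12 on the log2 scale (q = 0.0439). At 14 days the log2 fold change was 3.76 ± 1.18 with q = 0.369, so this difference did not pass the test although no library overlapped. Over 20 alternative analyses it ranged from 2.40 to 4.46, and it passed in 1 of them, the DESeq2 test (q = 0.0125). The call at 3 days was lost when any one of the control libraries (q = 0.0891 to 0.137), the TL3h libraries (q = 0.0503 to 0.0623), TL3d replicate 1 or 2 (q = 0.158 and 0.0912) or TL14d replicate 3 (q = 0.0613) was left out.

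HBEGF encodes heparin-binding EGF-like growth factor, which binds both the EGF receptor and ERBB4. Its control libraries held 3.20, 3.05 and 4.52 CPM, and its TL3h libraries held 272, 101 and 175 CPM. At 3 days the levels were 59.9, 16.4 and 9.25 CPM, and at 14 days they were 2.82, 31.8 and 5.60 CPM. The TL3h and TL3d libraries lay entirely above control, whereas TL14d replicate 1 was below every control library. The log2 fold change at 3 hours was 5.67 ± 1.07 (50.9-fold, q = 0.00188). At 3 days it was 2.99 ± 0.94 with q = 0.0539, just outside the threshold, and it passed in 6 of 20 alternative analyses, among them DESeq2 (q = 0.00334) and the fits without TL3d replicate 3 (q = 0.0437), TL14d replicate 1 (q = 0.0294) or TL14d replicate 2 (q = 0.0204). Over the 20 alternatives the 3-day value ranged from 1.84 to 3.59, with q up to 0.202. From 3 hours to 3 days HBEGF fell by 2.68 on the log2 scale (q = 0.0434). The calls of AREG and HBEGF between 3 hours and 3 days were each lost in 11 of 20 alternative analyses, and without TL3h replicate 1 their values were -2.14 (q = 0.163) and -2.24 (q = 0.118). Without TL3d replicate 1 they were -4.30 (q = 0.0305) and -3.83 (q = 0.0202).

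The neutrophil markers moved in the same libraries as both ligands, and the part of these cells in the rise was not tested. Within TL3h the summed neutrophil markers were at 1752, 2792 and 1049 CPM in replicates 1, 2 and 3, so that they were highest in the replicate with the least AREG and HBEGF. CXCR2 was also highest there (177, 235 and 82.6 CPM), whereas CSF3R was highest in replicate 1 (701, 607 and 229 CPM), which held the most of both ligands.

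EREG encodes epiregulin and lies beside AREG. Its levels were 7.45, 7.98 and 4.54 CPM in control, 30.1, 6.06 and 14.8 CPM in TL3h, 9.42, 6.71 and 2.90 CPM in TL3d, and 6.09, 5.57 and 3.29 CPM in TL14d. TL3h replicates 1 and 3 were above every control library, and TL3h replicate 2 lay among them. The log2 fold change at 3 hours was 1.35 ± 0.58 with q = 0.0800, and without TL3h replicate 2 it was 1.70 with q = 0.0281. That was the 1 of 20 alternative analyses in which it passed, and over them it ranged from 0.60 to 1.70 with q up to 0.416. The replicates ranked alike for AREG, EREG and HBEGF at 3 hours, with replicate 1 highest, replicate 3 between and replicate 2 lowest.

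EPGN encodes epigen, a ligand of low affinity that is made by stratified epithelia. The control libraries held 162, 138 and 43.4 CPM, and the TL3h libraries held 175, 68.8 and 163 CPM. At 3 days there were 89.3, 76.5 and 59.8 CPM, and at 14 days 130, 143 and 103 CPM. Control replicate 3 was the lowest of all 12 libraries, so that every group overlapped control. The log2 differences from control were 0.24 at 3 hours (95% confidence interval -0.78 to 1.26, q = 0.700), -0.61 on day 3 (q = 0.364) and 0.13 on day 14 (q = 0.940).

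TGFA encodes transforming growth factor alpha, a ligand of high affinity that epithelial cells make for themselves. The control libraries held 41.9, 36.4 and 22.2 CPM and the TL3h libraries 24.3, 10.4 and 29.6 CPM. At 3 days the values were 46.2, 29.9 and 16.1 CPM, and at 14 days they were 49.2, 43.3 and 28.7 CPM. The groups overlapped at all times, and q against control was 0.276, then 0.865, then 0.863. The interval of the log2 difference at 3 hours ran from -1.66 to 0.36.

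BTC encodes betacellulin and was among the least abundant of the ligands, at 13 to 62 counts per library. It ranged from 0.727 to 1.47 CPM in control, from 0.539 to 1.85 CPM in TL3h, from 0.598 to 0.899 CPM in TL3d and from 0.716 to 0.874 CPM in TL14d. No difference of BTC was detectable at this depth, with q between 0.281 and 0.821 against control.

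EGF, the founding ligand of the family, held 9.16, 7.73 and 16.5 CPM in control and 10.1, 5.77 and 6.99 CPM in TL3h. At 3 days it held 8.22, 6.47 and 7.63 CPM. The TL14d libraries held between 3.40 and 5.65 CPM, below each control library. The log2 difference at 14 days was -1.35 ± 0.33 with an unadjusted p of 0.00228 and q = 0.346 in edgeR's test, which is not a call. It did pass in DESeq2 (q = 0.00761) and without TL14d replicate 1 (log2 difference -1.59, q = 0.0474). At 3 hours the log2 difference was -0.54 (q = 0.207), and it passed when libraries were scaled by their size only (-1.02, q = 0.0210).

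EGFR, the receptor of all 7 ligands, was abundant throughout. The control libraries held 487, 482 and 438 CPM, and the TL3h libraries held 430, 499 and 654 CPM. The TL3d libraries held 354, 304 and 227 CPM, and the TL14d libraries held 476, 326 and 302 CPM. Every TL3d library was below every library of control and of TL3h, and TL14d overlapped with control. The log2 fold change at 3 hours was 0.17 (95% confidence interval -0.34 to 0.69, q = 0.583). At 3 days it was -0.67 ± 0.23 with q = 0.0705, and it passed in DESeq2 (q = 0.0282) and without TL14d replicate 1 (q = 0.0377). Between 3 hours and 3 days EGFR fell by 0.84 on the log2 scale (q = 0.0177). That call was lost without TL3h replicate 3 (-0.62, q = 0.0845), without TL3d replicate 2 (-0.86, q = 0.0524) or without TL3d replicate 3 (-0.68, q = 0.0594), and with scaling by library size only the difference was -0.36 (q = 0.269).

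ERBB2 stood at 360, 302 and 174 CPM in control and in TL3h at 68.54, 39.99 and 73.83 CPM. The TL3d libraries held 138, 137 and 120 CPM, and the TL14d libraries held 404, 226 and 219 CPM. The 3 TL3h libraries were the lowest of all 12, the TL3d libraries lay between them and control without overlap, and TL14d overlapped with control. ERBB2 fell at 3 hours to 0.218 times the control level (log2 fold change -2.20 ± 0.35, q = 0.000701). At 3 days the log2 fold change was -1.08 ± 0.33 with q = 0.05003, on the threshold, and it passed in 8 of 20 alternative analyses, among them the fits without control replicate 3 (q = 0.0287), TL3h replicate 2 (q = 0.0439) or TL14d replicate 1 (q = 0.0258). ERBB2 rose from 3 hours to 3 days by 1.12 on the log2 scale (q = 0.0247). That rise did not pass without TL3h replicate 2 (0.93, q = 0.0781), TL3d replicate 1 (1.08, q = 0.0620) or TL3d replicate 2 (1.09, q = 0.0663). The summed markers of lacrimal or serous glands were below control in the same TL3h and TL3d libraries, and their part in the levels of ERBB2 was not tested. At 14 days the log2 difference from control was 0.02 (95% confidence interval -0.71 to 0.76, q = 0.987).

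**Figure D2:**
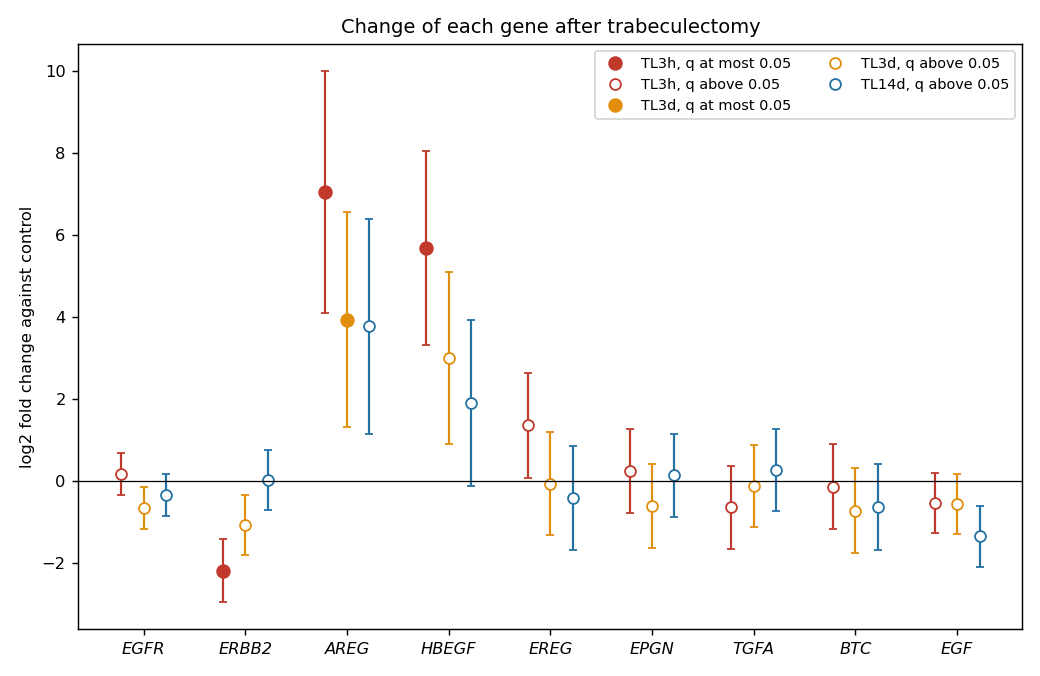
Log2 fold change of each gene against control at the 3 times; points are estimates of the edgeR fit, bars are 95% confidence intervals, and filled points passed q of 0.05. AREG and HBEGF are filled above 0 at 3 hours, ERBB2 is filled below 0, AREG alone is filled at 3 days, and no point is filled at 14 days.

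The calls of AREG, HBEGF and ERBB2 at 3 hours held in all 20 alternative analyses, with q up to 0.0118, 0.0118 and 0.00472. The scaling of the libraries mattered for genes that moved less. The TMM factors were 0.768 to 0.783 in TL3h and 1.03 to 1.13 in the other libraries, and scaling by library size alone moved the median over all genes tested from 0.02 to -0.47 at 3 hours (log2 fold change). Under that scaling the log2 difference of EGFR at 3 hours was -0.33 and that of EPGN was -0.28, both with the sign turned and neither past the test.

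Between 3 hours and 3 days 4 of the 9 genes changed, with ERBB2 higher and EGFR, AREG and HBEGF lower, beside 37.3% of all genes tested (18.4% higher and 19.0% lower). The libraries of these 4 did not overlap, 1 higher (26.2% of all genes) and 3 lower (28.5%), beside 54.7% in either direction. Without control replicate 3, TL3d replicate 3 and TL14d replicate 1 the call of HBEGF was lost (q = 0.0703) and 3 were left. The count was 0 without TL3d replicate 2, 1 without TL3h replicate 3 or TL3d replicate 3, and 2 without any one control library or TL3h replicate 1 or 2. Between 3 days and 14 days 0 of the 9 passed edgeR's test, beside 2.24% of all genes (0.647% higher and 1.59% lower). Of these 9, 2 had an unadjusted p under 0.05, DESeq2 called 1 and limma on log2(FPKM + 0.1) called 0. ERBB2 had the largest of these differences (1.10, q = 0.0992), with all TL14d libraries above all TL3d libraries. EPGN was also higher and EGF lower without overlap, so that 2 genes lay above (13.4% of all genes) and 1 below (14.0%), beside 27.4% in either direction. Against control at 14 days edgeR called 0 of the 9, beside 0.00% of all genes. AREG and EGF were the 2 whose libraries did not overlap with control, AREG higher (6.03% of all genes) and EGF lower (5.11%), beside 11.1% in either direction. These 2 had an unadjusted p under 0.05, DESeq2 called 2, limma called 0, and edgeR called 1 (EGF) without TL14d replicate 1. Of all 14835 genes, 1538 had an unadjusted p under 0.05 at 14 days, DESeq2 called 367 and limma called 1.

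The make-up of the ligand transcripts was set out in FPKM, fragments scaled by transcript length and library size, since values per length are needed to compare levels between genes. EPGN held the largest share of the summed FPKM of the 7 ligands in control, at 73.5% ± 11.2 (SD, n = 3), and TGFA followed at 11.1% ± 2.65. HBEGF took 2.84% ± 2.36 and AREG 0.433% ± 0.354. At 3 hours the order was changed, with HBEGF at 41.2% ± 2.64, EPGN at 34.8% ± 6.19 and AREG at 15.0% ± 5.76. The HBEGF share was above the EPGN share in TL3h replicates 1 and 2, and slightly below it in replicate 3.

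At 3 days EPGN was again first, at 59.5% ± 12.7, with HBEGF at 16.2% ± 9.42, and at 14 days EPGN held 73.8% ± 6.51. The shares are a description with no test. In FPKM the mean level of EPGN was 55.3 in control, 46.8 in TL3h, 36.2 in TL3d and 60.4 in TL14d, and that of HBEGF was 1.504, 55.7, 12.2 and 5.74. In TMM-scaled CPM the EPGN mean was 115 in control and 136 in TL3h, so its direction at 3 hours depends on the scaling. The summed FPKM of the 7 ligands ranged from 32.8 to 97.5 in control, from 68.0 to 206 in TL3h, from 39.6 to 95.3 in TL3d and from 63.2 to 105 in TL14d. On this scale the sum of every time overlapped with control. FPKM lack the TMM adjustment, whose factors were 0.768 to 0.783 in TL3h and 1.03 to 1.13 in control. TL3h thus stands lower against control in FPKM than in the CPM used above, and the sums were not compared with that adjustment. The EPGN and HBEGF shares of TL3h did not overlap with control, whereas those of TL14d did.

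**Figure D3:**
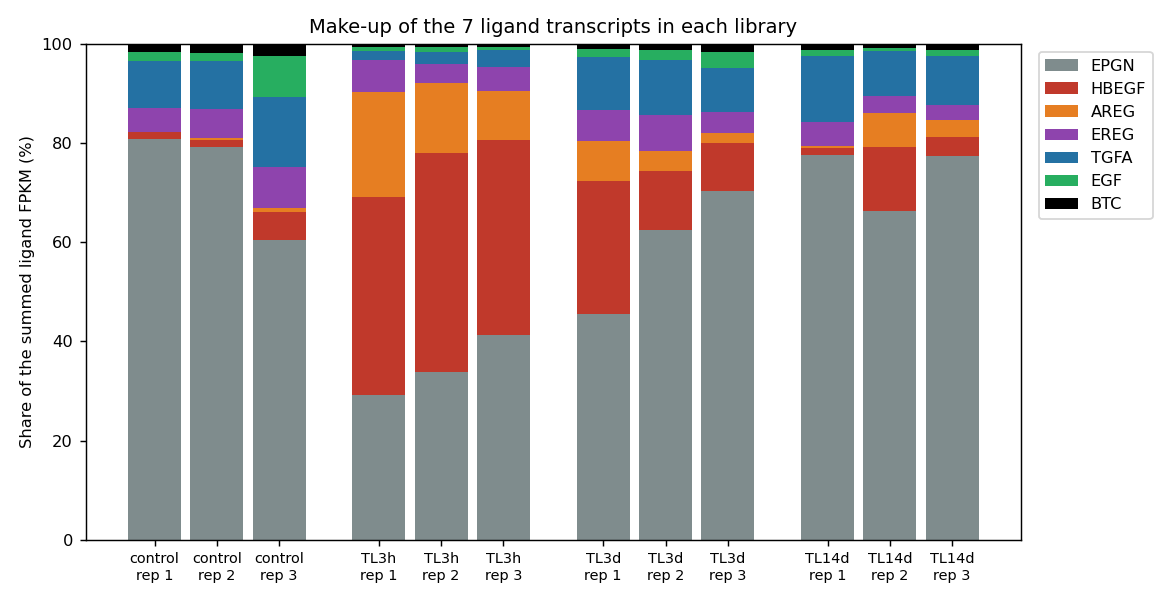
Share of each of the 7 ligands in their summed FPKM, in percent, 1 bar for each library. EPGN is the largest part of the bars of control and TL14d, and HBEGF with AREG makes up more than EPGN in each TL3h library.

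Neighbours in the FPKM order of the ligands were often not separated. In control the order of the means was EPGN, TGFA, EREG, EGF, HBEGF, BTC and AREG, and the libraries of TGFA (4.63 to 9.30) and EREG (2.68 to 5.05) overlapped, as did those of EREG and EGF and those of EGF, HBEGF and BTC, whereas EPGN (19.8 to 78.7) lay above and AREG (0.146 to 0.273) below all others. In TL3h the order was HBEGF, EPGN, AREG, EREG, TGFA, EGF and BTC, and the ranges of HBEGF (30.0 to 82.5), EPGN (23.1 to 60.1) and AREG (9.56 to 43.8) overlapped in turn, as did those of AREG, EREG and TGFA, whereas TGFA (1.59 to 4.75) lay above EGF (0.712 to 1.28), which overlapped with BTC. The receptors EGFR and ERBB2 had like levels in control, at 56.2 ± 5.14 and 57.9 ± 21.2 FPKM. In TL3h they were at 45.7 ± 10.8 and 9.06 ± 2.87 FPKM. In TMM-scaled CPM the EGFR mean was 469 in control and 528 in TL3h, so its direction at 3 hours depends on the scaling. In TL3d EGFR was at 35.7 ± 8.38 and ERBB2 at 27.4 ± 2.76 FPKM, and in TL14d they were at 44.5 ± 11.5 and 58.9 ± 21.95 FPKM.

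Ratios of 2 genes within a library do not depend on how libraries are scaled. The ratio of ERBB2 to EGFR in FPKM was 1.27, 1.08 and 0.683 in control and 0.274, 0.138 and 0.194 in TL3h. It was 0.672, 0.777 and 0.909 in TL3d and 1.46, 1.19 and 1.24 in TL14d. The TL3h ratios were below all others, and TL3d and TL14d overlapped with control. The mean log2 ratio differed from control by -2.33 at 3 hours (two-sided exact permutation p = 0.1, the smallest that 3 against 3 libraries can give), by -0.33 at 3 days (exact permutation p = 0.3) and by 0.40 at 14 days (exact permutation p = 0.3).

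The genes AREG and EREG are 42820 bases apart, and their ratio was lowest in control. The log2 ratio of AREG to EREG was -4.17 ± 0.85 (SD, n = 3) in control, 1.53 ± 0.45 in TL3h, -0.55 ± 0.82 in TL3d and -0.80 ± 2.39 in TL14d. The TL3h and TL3d libraries were above control without overlap (exact permutation p = 0.1 each), and TL14d overlapped (exact permutation p = 0.2). The log2 ratio of AREG to HBEGF was -2.75 ± 0.48 in control and higher in TL3h (-1.52 ± 0.55) and in TL14d (-0.98 ± 0.85) without overlap, both with an exact permutation p = 0.1, and in TL3d it was -1.88 ± 0.40 (exact permutation p = 0.2). HBEGF to EPGN differed from control by 5.24 at 3 hours and 2.98 at 3 days in the log2 ratio, without overlap (exact permutation p = 0.1 each), and by 0.84 at 14 days with overlap (exact permutation p = 0.6). These 12 comparisons were not corrected, since none could pass a threshold of 0.05.

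**Figure D4:**
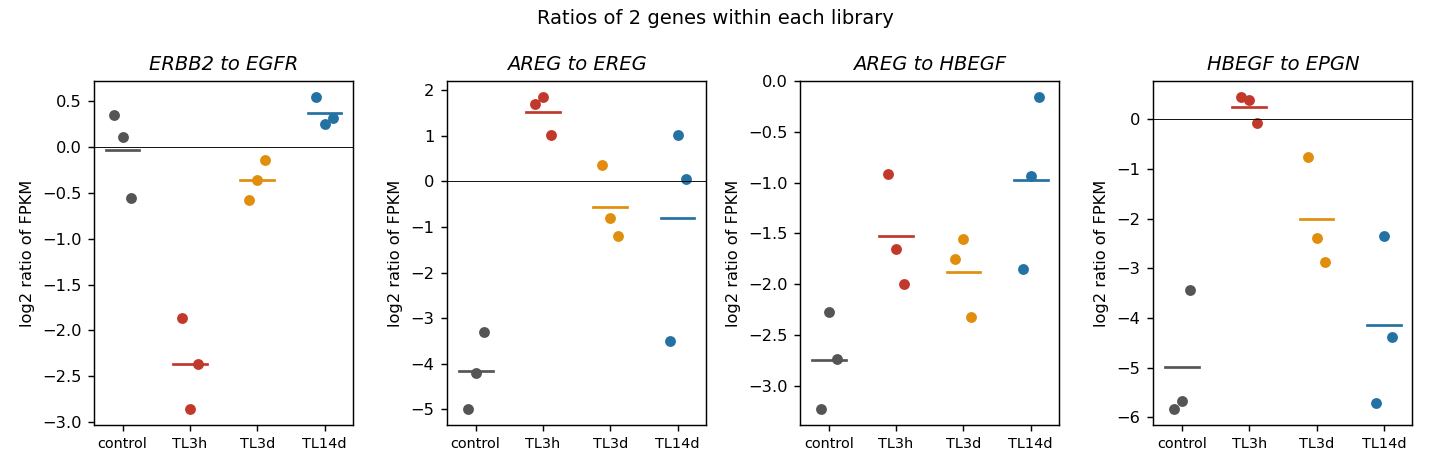
Log2 ratio of the FPKM of 2 genes within each library, for 4 pairs; points are libraries, thick bars are means of 3 and the thin line marks equal levels. The ratio of ERBB2 to EGFR is lowest in the 3 TL3h libraries, and AREG to EREG and HBEGF to EPGN are highest there on average.

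The transcript table held 18 transcripts of the 9 genes, of which 17 could be tested, and 1 AREG transcript of 916 bases was at 0 in all 12 libraries. At 3 hours 4 rose and 1 fell, beside 28.3% of all transcripts that were called (14.1% higher and 14.1% lower). The main transcripts of HBEGF (2291 bases) and AREG (1255 bases) changed by 5.57 (q = 0.00342) and 6.91 (q = 0.00379) on the log2 scale, and the single ERBB2 transcript by -2.25 (q = 0.00123). A further HBEGF transcript of 2202 bases was at 0 counts in all control libraries, where a count of 0 allows up to 3 counts per library, and it was at least 96.5-fold higher in TL3h (q = 0.00625). It held 4.3%, 3.8% and 3.7% of the HBEGF transcript counts in the TL3h libraries.

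EGFR had 3 transcripts, and those of 7307 and 7305 bases held at least 64.2% and 27.7% of its counts in each library. Their log2 fold changes at 3 hours were 0.08 (q = 0.849) and 0.13 (q = 0.737). The third, of 7643 bases, ends at 45803851 and thus starts 5′ of the others on the minus strand. It held 2.2%, 1.9% and 1.3% of EGFR counts in control and 4.6%, 2.8% and 3.9% in TL3h, and the shares did not overlap. Its level rose by 1.18 on the log2 scale at 3 hours (2.27-fold, q = 0.0311) and fell by 2.31 between 3 hours and 3 days (q = 0.00196). In that comparison 3 of the 17 transcripts were called, 1 higher (ERBB2) and 2 lower (of EGFR), beside 21.4% of all transcripts (11% higher and 10.4% lower). How reads shared by the EGFR transcripts were divided is not stated, so the split between them is an estimate. Against control edgeR called 0 of the 17 transcripts at 3 days (7 with an unadjusted p under 0.05; 5.13% of all transcripts called, 3.24% higher and 1.88% lower) and 0 at 14 days (2 with an unadjusted p under 0.05; 0.00% called). Between 3 days and 14 days 0 of the 17 passed (3 with an unadjusted p under 0.05), beside 0.123% of all transcripts, 0.0153% higher and 0.107% lower.

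EPGN had 4 transcripts, which held from 12.8% to 38.5% of its counts, and their unadjusted p in edgeR's test was at least 0.0879 against control at each time. TGFA had 2 transcripts of 4290 and 4292 bases whose shares ranged widely, from 29.4% to 84.9% for the first. Since these differ by little in length and placement, their shares are uncertain.

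Of the other receptors and neuregulins of the family, ERBB3 and NRG4 fell at 3 hours and ERBB4, NRG2 and NRG4 at 3 days. The chosen list held ERBB3, ERBB4, NRG1, NRG2, NRG3 and NRG4, and at 3 hours 2 of 6 fell and 0 rose, beside 22.2% of all genes lower and 23.2% higher, with a median log2 fold change of -1.39 beside 0.02 for all genes. ERBB3, which binds neuregulins and signals with ERBB2, stood at 778, 619 and 338 CPM in control and at 173, 69.0 and 171 CPM in TL3h. All TL3h libraries were below control (log2 fold change -2.07 ± 0.49, q = 0.00610). At 3 days ERBB3 held 241, 261 and 174 CPM (-1.36, q = 0.0711), and at 14 days 765, 338 and 281 CPM, which overlapped with control.

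ERBB4, a receptor of neuregulins and HBEGF, was low in control at 4.18, 4.65 and 2.48 CPM. It stood at 1.42, 0.622 and 1.21 CPM in TL3h (q = 0.219) and at 0.0750, 0 and 0.256 CPM in TL3d, where it fell by 5.04 on the log2 scale (q = 0.0309). TL14d replicate 1 held 4.20 CPM and the other TL14d libraries 0.0815 and 0.781 CPM. At 3 days 3 of the 6 genes fell, beside 7.0% of all genes lower, namely ERBB4, NRG4 (-0.89, q = 0.0371) and NRG2 (-3.04, q = 0.0482), and 0 rose. NRG2 was near the floor, at 0.309, 0.550 and 2.43 CPM in control and 0.123 to 0.142 CPM in TL3d, and its call was lost in 15 of 20 alternative analyses, with -1.71 (q = 0.168) without control replicate 3. The value of ERBB4 was -6.43 without TL3d replicate 3 (q = 0.0381). NRG4 had also fallen at 3 hours (-0.98, q = 0.00950). NRG1, a neuregulin, had log2 fold changes of 1.43 (q = 0.0662) and 1.63 (q = 0.0756) at 3 hours and 3 days. The count at 3 days was 0 without control replicate 1 or 2 or TL3d replicate 1 or 2, was 1 without control replicate 3, TL3h replicate 1 or TL3d replicate 3, and was 5 without TL14d replicate 1.

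Of the 10 sheddases and their partners, 3 rose at 3 hours and 2 at 3 days, and 0 fell, beside 23.2% and 10.6% of all genes higher. ADAM17, the main sheddase of AREG, HBEGF and TGFA, held 73.4, 72.6 and 65.3 CPM in control, 108, 102 and 120 CPM in TL3h, and 141, 132 and 123 CPM in TL3d. The TL3h and TL3d libraries were above control without overlap. The log2 fold changes were 0.64 (q = 0.0192) and 0.91 (q = 0.0169). RHBDF2, which carries ADAM17 to the cell surface, was at 28.4, 24.2 and 23.5 CPM in control, 34.9, 32.2 and 28.9 CPM in TL3h and 68.9, 73.9 and 54.3 CPM in TL3d. It rose at 3 days (1.37, q = 0.0142) and not detectably at 3 hours (0.33, q = 0.337). ADAM9 (0.59, q = 0.00744) and ADAM8 (1.70, q = 0.00995) rose at 3 hours. With scaling by library size only, ADAM17 and ADAM9 were at 0.14 (q = 0.606) and 0.09 (q = 0.637) at 3 hours, so these small rises depend on the scaling. The call of ADAM17 at 3 hours was lost in 6 of 20 alternative analyses, also without control replicate 2 (q = 0.0501), control replicate 3 (q = 0.0765), TL3h replicate 1 (q = 0.0553) or TL3h replicate 3 (q = 0.0862). The 3-day count was 0 without control replicate 2 or TL3d replicate 1 or 2 and 1 without control replicate 1.

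Of 19 listed genes of the relay from the receptor to the nucleus, 5 rose and 5 fell at 3 hours, near the 23.2% higher and 22.2% lower among all genes, with a median log2 fold change of -0.04. The adaptor SHC1 (1.204, q = 0.000635) and the transcription factor STAT3 (1.496, q = 0.00109) rose, and the regulatory subunit PIK3R1 of phosphoinositide 3-kinase fell (-1.20, q = 0.00354). NRAS rose by 0.58 (q = 0.00378) and was at 0.08 (q = 0.657) with scaling by library size only. At 3 days SHC1 alone was called (0.74, q = 0.0263), beside 10.6% of all genes higher, a count that was 0 without control replicate 1 or 2 or TL3d replicate 1 or 2 and 2 without TL3d replicate 3 or TL14d replicate 2.

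Inhibitors and feedback regulators of the receptor pathway rose in numbers at 3 hours, with 14 of 21 higher and 1 lower, beside 23.2% and 22.2% of all genes, and a median log2 fold change of 1.26. This list was chosen with earlier results of these data known, so its counts are a description. ERRFI1, which binds and inhibits the EGF receptor kinase, stood at 34.2, 24.8 and 43.0 CPM in control and at 688, 589 and 734 CPM in TL3h. The TL3d libraries held 52.0, 64.6 and 46.0 CPM and the TL14d libraries 30.7, 35.7 and 26.9 CPM. The rise at 3 hours was 4.30 ± 0.24 on the log2 scale (19.7-fold, q = 1.69e-05), and at 3 days the difference was 0.67 (q = 0.0554). The TL3h replicates of ERRFI1 differed by less than those of AREG and HBEGF.

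SPRY2, an inhibitor of signalling from receptor tyrosine kinases to ERK, was at 14.0, 15.5 and 18.9 CPM in control, 82.7, 110 and 82.3 CPM in TL3h and 7.30, 6.01 and 9.08 CPM in TL3d. It rose at 3 hours (2.505, q = 7.04e-05) and fell below control at 3 days (-1.11, q = 0.0177). DUSP5, a nuclear phosphatase of ERK, rose at 3 hours (4.87, q = 7.25e-05) and at 3 days (2.30, q = 0.0137), and SOCS4 rose at 3 hours (1.37, q = 0.000142). LRIG1, which promotes the breakdown of EGF receptors, was at 0.41 at 3 hours (q = 0.258) and fell at 3 days (-1.12, q = 0.0272), with all TL3d libraries (70.9 to 85.3 CPM) below control (139 to 212 CPM). At 3 days 5 of the 21 rose and 4 fell, beside 10.6% and 7.0% of all genes, and this total of 9 became 2 without control replicate 1, 1 without control replicate 2, 3 without TL3d replicate 1 and 1 without TL3d replicate 2.

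Genes known to be switched on by receptor signalling were called in 1 direction at 3 hours, with 11 of 17 higher and 0 lower, beside 23.2% and 22.2% of all genes, and a median log2 fold change of 2.40. The choice of this list was also made with earlier results of these data known. KLF6 (2.27, q = 8.87e-05), IER3 (3.47, q = 9.27e-05), MCL1 (1.63, q = 0.000154) and PLAUR (5.55, q = 0.000305), which encodes the urokinase receptor, had the smallest q of the list. FOSL1, an AP-1 subunit that was singled out after its values were seen, was at 0.0475, 0.0250 and 0.753 CPM in control and at 117, 115 and 87.5 CPM in TL3h (log2 fold change 8.59, q = 0.000674). Control replicates 1 and 2 were below the level of 3 counts, and without control replicate 3 the fitted log2 fold change of FOSL1 was 11.31 at 3 hours (q = 0.000507) and 7.42 at 3 days (q = 0.0204), so its size depends on that library. Without the same library PLAUR was at 6.30 (q = 0.000364) and 3.38 (q = 0.0220). At 3 days 5 of the 17 were higher and 0 lower, beside 10.6% and 7.0% of all genes, among them FOSL1 (4.66, q = 0.0268), PLAUR (2.59, q = 0.0275) and IER3 (1.34, q = 0.0279). That count was 0 without control replicate 1 or 2 or TL3d replicate 1 or 2. Many of these genes also respond to other signals of injury and inflammation, and which signal moved them was not tested.

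At 14 days edgeR called 0 genes in each of the 5 lists. The numbers with an unadjusted p under 0.05 were 1 of the other receptors and neuregulins, 1 of the sheddases, 1 of the relay, 5 of the feedback regulators and 5 of the target genes. DESeq2 called 2 feedback regulators and 2 target genes and 0 of the other lists, and limma called 0 in every list, beside 1538 of 14835 genes with an unadjusted p under 0.05 and 367 called by DESeq2. Without TL14d replicate 1 edgeR called 3 feedback regulators and 3 target genes. The markers of neutrophils given above moved in the same libraries as the feedback and target lists at 3 hours, and so did the sums of macrophage, fibroblast and endothelial markers, also given there. Their part in these counts was not tested.

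**Figure D5:**
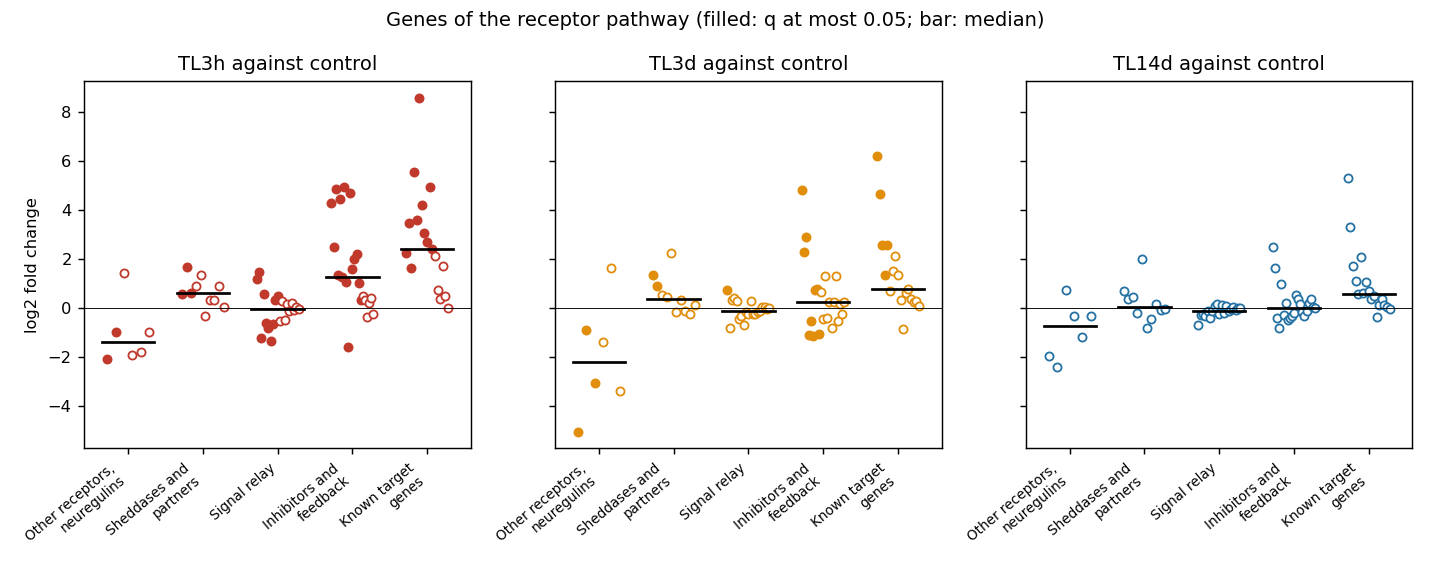
Log2 fold change against control of the genes of 5 lists around the receptor, 1 panel for each time; points are genes, filled where q was 0.05 or less, and bars are list medians. Feedback regulators and target genes lie mostly above 0 at 3 hours, with medians of 1.26 and 2.40, and no gene is filled at 14 days.

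The genes with levels most like those of each member were sought over the 12 libraries by Pearson's r of log2(CPM + 0.5) among 13252 genes whose mean CPM was 1 or more, as a description in which libraries of 1 group share their treatment. For AREG they were LOC103352452 (r = 0.976), HBEGF (0.972) and BZW2 (0.970), so HBEGF was second among all genes. For HBEGF they were CAP1 (0.987), TXNRD1 (0.983) and B3GNT2 (0.983). ERBB2 was most like LOC100356929 (0.989), KIAA1217 (0.988) and CACNB3 (0.988), and EGFR was most like MARCH6 (0.929), CHIC2 (0.925) and AGGF1 (0.917).

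EREG was most like C16H1orf116 (0.962), PRSS22 (0.953) and LPAR5 (0.948), and TGFA was most like WWC1 (0.968), ABHD17C (0.966) and LLGL2 (0.954). The highest r was 0.874 for EPGN (TNK1, then ST14 at 0.870 and ZNF644 at 0.868) and 0.926 for EGF (LTC4S, then PLEKHA2 at 0.864 and MPC2 at 0.809). BTC had a mean below 1 CPM and was left out. Among the members themselves r was -0.844 for ERBB2 with HBEGF, -0.779 for ERBB2 with AREG, 0.752 for ERBB2 with TGFA, 0.658 for AREG with EREG and -0.105 for EGFR with ERBB2.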

How the data were processed

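Conjunctival RNA from 12 rabbit libraries (4 groups of 3) was prepared with a stranded mRNA kit and mapped by the authors to OryCun2.0 with STAR 2.6.0c, per the submitters' processing notes, and quantified in GeneData Profiler Genome. The authors deposited estimated counts, not scaled by library size and not all whole numbers, and FPKM values, scaled by length and depth, per gene and per transcript. How reads with several placements were divided and whether strand was used in counting are not given in the sources used here. The deposited expected counts were rounded, genes were filtered by filterByExpr (minimum count 10, minimum total 15; 14835 of 20566 genes and 26082 of 38710 transcripts kept), scaled by TMM and fitted in edgeR 4.0.16 (R 4.3.3) with a quasi-likelihood model of all 12 libraries, without covariates. Log2 fold changes had a prior count of 0.125. Benjamini-Hochberg adjustment covered all features tested, with a threshold of 0.05. Ratios of FPKM were compared by two-sided exact permutation tests.

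The floor that a count of 0 allows was set at 3 counts per library, or 0.0712 to 0.124 CPM. This floor covers counting error only. The labels do not say that libraries of a group came from separate animals, so p-values measure the spread between these libraries. For the operated groups the paper describes surgery on the right eye and values averaged over 3 eyes. Groups were taken from the sample labels. The genes, the 5 pathway lists and the marker lists were chosen with earlier results of these data known. Within each list the up to 4 genes with the smallest q in any comparison with control were named, besides ERRFI1, LRIG1, ADAM17, RHBDF2, ERBB3, ERBB4, NRG1 and the markers KRT5, MUC5AC, CSF3R, CD68, COL1A1 and PECAM1 (MUC5AC was not found by name), and for each member the 3 genes with the highest correlation. HRAS, MAP2K2, AKT1, JUNB and CCND1 were not found by name in the table. The alternatives were DESeq2 1.42.0 size factors, its test, library size only, no filter, only the 6 libraries compared, a replicate block, leaving out each library, and limma 3.58.1 on log2(FPKM + 0.1); 3 libraries were left out together as an alternative chosen after seeing the data. FOSL1 was named after its values were seen. No sequence of the genes was used here.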

Additional observations from a re-analysis of the deposited data

Results flagged for a closer look

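Of the genes studied, 4 of the 9 genes differed between 3 hours and 3 days after surgery by the test of that difference itself, in the edgeR fit. AREG was lower at 3 days by a log2 difference of -3.12 (q = 0.0439) and HBEGF by -2.68 (q = 0.0434), with 3 of 3 TL3d libraries below the TL3h libraries for each gene. ERBB2 was higher at 3 days by 1.12 (q = 0.0247), in 3 of 3 libraries. EGFR was lower, at -0.84 (q = 0.0177), in 3 of 3 libraries. In this comparison 37.3% of all genes were called. None of the 4 calls was left without TL3d replicate 2 (a count of 0), and those of AREG and HBEGF were each lost in 11 of 20 alternative analyses.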

How the results depend on the processing

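The signs and calls of AREG, HBEGF and ERBB2 at 3 hours were the same under all 20 alternatives. Of 1500 values of single genes under the alternatives, 1314 kept their direction and side of the threshold, 117 lost a call, 26 gained one and 43 turned sign. The cause of these changes was not tested. Several results that involve the 3-day libraries are near the threshold.

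The number of the 9 genes called at 3 days (1) became 2 with DESeq2 size factors, 4 with the DESeq2 test, 0 without the filter on low counts, 3 with only the 6 libraries compared, 0 with limma on FPKM and 3 with 3 libraries left out. At 14 days (0) the DESeq2 test gave 2, between 3 hours and 3 days (4) library size only gave 1, and between 3 days and 14 days (0) the DESeq2 test gave 1. At 3 days the relay list (1) gave 2 with DESeq2 size factors, 2 with library size only, 4 with the DESeq2 test, 2 with limma and 3 with 3 libraries left out. The DESeq2 test gave 5 for the other receptors and neuregulins (3) and 8 for the target genes (5) at 3 days, and 2 feedback regulators and 2 target genes at 14 days (0 each). With 3 libraries left out there were 5 sheddases at 3 hours (3) and, at 14 days (0 each), 1 sheddase, 6 feedback regulators and 5 target genes.

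Leaving out 1 library at a time gave 0 to 4 of the 9 genes at 3 days, 0 to 1 at 14 days and 0 to 4 between 3 hours and 3 days. For the lists at 3 days it gave 0 to 5 receptors and neuregulins, 0 to 3 sheddases, 0 to 2 relay genes, 1 to 11 feedback regulators and 0 to 7 target genes, and at 14 days 0 to 3 feedback regulators and 0 to 3 target genes. Of the transcripts it gave 0 to 2 at 3 days and 1 to 6 between 3 hours and 3 days.

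As CPM in place of FPKM, the ligand shares were 20.4% for TGFA in control, 45.4% for HBEGF and 5.38% for TGFA in TL3h, 19.5% for TGFA in TL3d, and 65.5% for EPGN and 20.9% for TGFA in TL14d.

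Signs turned for differences that did not pass the test. EGF between 3 hours and 3 days was at 0.011 with DESeq2 size factors, 0.011 with the DESeq2 test, 0.44 with library size only and 0.44 with limma. With library size only EGFR and EPGN at 3 hours were at -0.33 and -0.28, and ERBB2 at 14 days was at -0.0064. With limma EGFR and EPGN at 3 hours were at -0.32 and -0.13, and BTC between 3 hours and 3 days was at 0.039. With 3 libraries left out, EPGN at 3 hours was at -0.21, EREG at 3 days at 0.049, ERBB2, TGFA and EPGN at 14 days at -0.59, -0.14 and -0.30, and EGFR, TGFA and BTC between 3 days and 14 days at -0.063, -0.077 and -0.12. Leaving out 1 library at a time gave, at 3 hours, -0.062 to 0.25 for EGFR, -0.82 to 0.11 for BTC and -0.21 to 0.58 for EPGN. At 3 days it gave -0.47 to 0.28 for EREG and -0.54 to 0.18 for TGFA, and at 14 days -0.33 to 0.25 for ERBB2 and -0.27 to 0.47 for EPGN. Between 3 hours and 3 days it gave -0.16 to 0.26 for EGF and -0.86 to 0.069 for BTC. Between 3 days and 14 days it gave -1.53 to 1.02 for AREG, -0.70 to 0.051 for EREG, -2.76 to 0.066 for HBEGF and -0.029 to 0.28 for BTC.

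Libraries with the same replicate number were not shown to be paired. Their deviations correlated at -0.16 to 0.526 (median 0.0612, 18 pairs), against -0.572 to 0.428 for different numbers, and the libraries of 6 that correlated best with their own number were 2, 4, 4, 2 and 5 in the 5 comparisons. With the replicate number as a block 3, 1, 0, 4 and 0 of the 9 genes were called, with ERBB2 (q = 0.0454) in place of AREG (q = 0.0796) and HBEGF lost between 3 hours and 3 days (q = 0.0503) against EREG gained (q = 0.0406). The relay list at 3 days gave 2 under the block, and AREG between 3 days and 14 days was at 0.17.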
